A study of Mus musculus with 17 samples.

Results

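The phagocyte NADPH oxidase is described here through 6 genes, Cybb, Cyba, Ncf1, Ncf4, Rac1 and Rac2, in leukocytes sorted from regenerating mouse muscle. The genes were chosen by symbol, and each was found on 1 row of the 38087 rows of the deposited table. All 6 passed a log2 value of 5 in every group. By the looser rule of a value of 5 or more in at least 1 group, 13065 genes passed. The mice were male DBA/2J animals aged 3 months. Their tibialis anterior muscle had been injured with cardiotoxin, a venom toxin that destroys muscle fibres and is followed by regeneration. The 17 samples form 6 groups, of which the neutrophils of day 1 have 2 samples and the others 3 each: the Ly6C high macrophages of days 1, 2 and 4, and the Ly6C low ones of days 2 and 4. No uninjured or untreated group is among them, and the labels do not say whether each sample came from a separate mouse. The table gives 1 value per group, in log2 normalised reads, taken here as the authors' mean over the samples. No value below therefore has an error, no test between groups could be made, and whether the samples of 2 groups overlap cannot be seen.

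The oxidase makes superoxide, which phagocytes use against microbes and as a signal. Its catalytic core is a membrane heterodimer of gp91phox, encoded by Cybb, and p22phox, encoded by Cyba. At rest the organiser p47phox (Ncf1) and the phosphoinositide-binding p40phox (Ncf4) stay in the cytosol, and on activation they move to the membrane together with a Rac GTPase, Rac1 or Rac2. Loss of any of several subunits causes chronic granulomatous disease. In injured muscle, neutrophils arrive first and are followed by Ly6C high macrophages, which derive from inflammatory monocytes, and then by Ly6C low macrophages that accompany repair.

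In the GRCm38 assembly with GENCODE M21 annotation, Cybb (ENSMUSG00000015340) lies on chromosome X from 9435252 to 9487771 and Cyba (ENSMUSG00000006519) on chromosome 8 from 122424776 to 122432930. Ncf1 (ENSMUSG00000015950) is on chromosome 5 from 134220053 to 134229625, and Rac1 (ENSMUSG00000001847) is on the same chromosome from 143503634 to 143528036. Ncf4 (ENSMUSG00000071715, 78244801 to 78262580) and Rac2 (ENSMUSG00000033220, 78559167 to 78572783) are both on chromosome 15. All are protein-coding genes.

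Promoter sequences were found in the RefSeq table (GRCm38.p6) for 3 of the 6 genes. They are shown because Cybb and Ncf1 were the subunits with the widest ranges over the groups, and Cyba is the membrane partner of Cybb. Each window holds 300 bases on the minus strand of the assembly, from 250 bases before the RefSeq start to 50 after it. Capitals mark the letters GAGGAA (PU.1 and other ETS factors), TGANTCA (AP-1), GAAA, any 2 bases and GAAA (the IRF word) and AGGTCA (part of the sites of PPAR and other nuclear receptors), searched on both strands.
Cybb, chrX:9469275-9469574: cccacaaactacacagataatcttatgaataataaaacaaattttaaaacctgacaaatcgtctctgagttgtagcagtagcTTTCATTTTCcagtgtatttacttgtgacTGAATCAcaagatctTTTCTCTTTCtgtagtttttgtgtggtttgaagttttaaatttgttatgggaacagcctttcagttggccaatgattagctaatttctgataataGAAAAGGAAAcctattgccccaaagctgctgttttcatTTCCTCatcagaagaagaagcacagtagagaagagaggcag
Ncf1, chr5:134229576-134229875: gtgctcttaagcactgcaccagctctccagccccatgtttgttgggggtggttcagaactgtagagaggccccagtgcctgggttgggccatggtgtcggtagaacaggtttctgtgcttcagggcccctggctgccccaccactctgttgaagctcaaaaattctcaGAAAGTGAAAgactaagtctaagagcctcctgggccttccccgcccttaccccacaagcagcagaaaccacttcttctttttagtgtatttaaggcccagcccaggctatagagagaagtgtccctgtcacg
Cyba, chr8:122432891-122433190: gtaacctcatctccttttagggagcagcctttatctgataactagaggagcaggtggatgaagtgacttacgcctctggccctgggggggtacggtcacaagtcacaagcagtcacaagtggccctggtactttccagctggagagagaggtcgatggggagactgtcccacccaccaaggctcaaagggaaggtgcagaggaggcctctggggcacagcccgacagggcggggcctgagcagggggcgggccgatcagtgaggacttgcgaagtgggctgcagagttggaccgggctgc

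The Cybb window held GAGGAA once, as TTCCTC, 9 bases after the start, TGANTCA once, as TGAATCA, at position -139, and the IRF word 3 times, at positions -168, -124 and -29, counted from the start to the first base of each match. No 2 of these matches overlap. The RefSeq start used for Cybb lies 18.4 kb inside the end of the longest annotated gene model. The Ncf1 window held the IRF word once, at position -82, and the Cyba window held none of the 4 words. None of the 3 windows held AGGTCA. Of 32851 promoters of this length, 28.3% held GAGGAA, 7.81% TGANTCA, 3.44% the IRF word and 16.3% AGGTCA, on either strand. These matches are descriptions of letters and not binding sites.

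The sorted populations were checked on lists of marker genes. Of 15 neutrophil markers, the 11 compared between the day 1 groups included 10 that were at least 2-fold lower in Ly6C high cells, but Ly6g itself had a log2 value of only 3.48 in neutrophils and was listed at 0 in the 5 macrophage groups, and Elane was listed at 0 in neutrophils. All 11 macrophage markers reached a log2 value of 5 in every group, the neutrophils included. Their summed level, on the log2 scale, was 15.27 in neutrophils and 15.98 to 16.75 in the macrophage groups. The summed level of 8 fibroblast markers was 5.80 in neutrophils, 8.66, 10.36 and 15.84 across days 1, 2 and 4 of the Ly6C high subset, and 7.85 and 13.85 across days 2 and 4 of the Ly6C low subset. Since these are bulk samples, fewer cells of a type and less RNA per cell cannot be told apart.

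**Figure D1:**
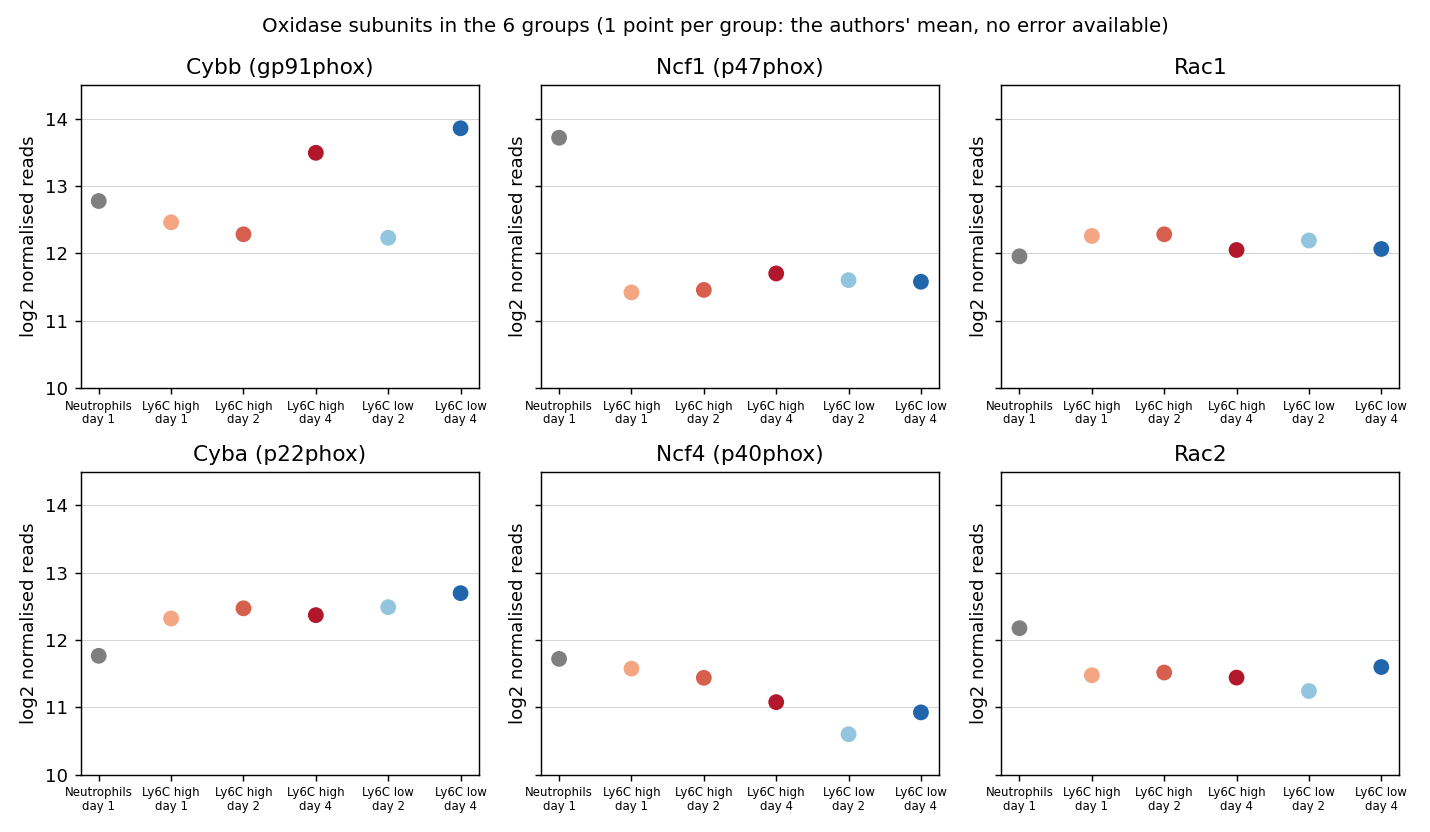
Log2 normalised reads (vertical axis) of the 6 subunit genes by group (horizontal axis, 6 groups), 1 point per group, which is the authors' mean, without error bars. Ncf1 stands at 13.72 in neutrophils and at 11.42 to 11.70 in the macrophage groups, and Cybb is highest in both day 4 groups.

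The subunits did not share 1 pattern over the groups. Ncf1 was 4.92-fold higher in neutrophils than in Ly6C high macrophages of the same day, Cybb was 2.31-fold and 3.09-fold higher on day 4 than on day 2 in Ly6C high and Ly6C low macrophages, and Ncf4 was lowest in day 2 Ly6C low cells. Rac1 and, within macrophages, Cyba, Rac2 and Ncf1 stayed within a narrow range. Over the 6 groups the range on the log2 scale was 2.30 for Ncf1, 1.63 for Cybb, 1.12 for Ncf4, 0.93 for both Rac2 and Cyba, and 0.33 for Rac1, which became 0.55 after quantile normalization. Over the 5 macrophage groups it was 1.63 for Cybb, 0.97 for Ncf4, 0.38 for Cyba, 0.36 for Rac2, 0.28 for Ncf1 and 0.23 for Rac1. The wide range of Ncf1 thus rested on the neutrophil group.

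Cybb, the electron-transferring subunit, had log2 values of 12.78 in neutrophils, 12.46, 12.28 and 13.49 across days 1, 2 and 4 of the Ly6C high subset, and 12.23 and 13.86 across days 2 and 4 of the Ly6C low subset. Both day 4 groups were the highest, and the 3 macrophage groups of days 1 and 2 were the lowest, with steps of 0.18 and 0.05 between neighbours. The day 4 value exceeded that of day 2 by 1.21 in Ly6C high cells and by 1.63 in Ly6C low cells. In the Ly6C low comparison, 4.93% of the 11824 genes compared were at least as far apart in either direction, and in the Ly6C high comparison 13.5% of 12348. Between the subsets Cybb differed by -0.05 on day 2, which became 0.18 after quantile normalization, and by 0.36 on day 4, Ly6C low minus Ly6C high.

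Fibroblast markers were at least 2-fold higher on day 4 for 8 of 8 genes in both subsets, beside the higher Cybb. Neutrophil markers were lower for 5 of 8 in both subsets and higher for 1 in Ly6C high cells. Of 11 macrophage markers, 3 were higher and 2 lower in Ly6C high cells, and 5 higher and 2 lower in Ly6C low cells. Monocyte markers were lower for 1 of 5 and 3 of 5. Endothelial markers were higher for 8 of 8 in Ly6C high cells, where their summed log2 level was 12.45 against 9.91, and for 0 of 5 in Ly6C low cells (9.73 against 9.11). Dendritic cell markers were higher for 4 of 6 in Ly6C high cells and 0 of 3 in Ly6C low cells, and muscle markers for 2 of 2 and 3 of 3. The part of these cells in the Cybb values was not tested.

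Cyba, which stabilises gp91phox in the membrane, had log2 values of 11.77 in neutrophils, 12.32, 12.47 and 12.37 across days 1, 2 and 4 of the Ly6C high subset, and 12.49 and 12.70 across days 2 and 4 of the Ly6C low subset. Neutrophils were the lowest group, 0.55 below day 1 Ly6C high cells. Steps between neighbouring macrophage groups were 0.02 to 0.21, too small to order them without an error. The ratio of Cybb to Cyba inside a group is left as it is by a scaling that multiplies a whole group by 1 factor, but not by quantile normalization. Cybb minus Cyba was 1.01 in neutrophils, 0.14, -0.19 and 1.12 across days 1, 2 and 4 of the Ly6C high subset, and -0.26 and 1.16 across days 2 and 4 of the Ly6C low subset. Relative to its partner, Cybb was therefore about equally high in neutrophils and in both day 4 macrophage groups, and lower in the 3 others.

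Ncf1, the organiser that bridges the cytosolic complex to p22phox, had log2 values of 13.72 in neutrophils, 11.42, 11.45 and 11.70 across days 1, 2 and 4 of the Ly6C high subset, and 11.60 and 11.58 across days 2 and 4 of the Ly6C low subset. On the linear scale the neutrophil value was 13452 normalised reads and the macrophage values ran from 2736 to 3326. Of the 11890 genes compared between the day 1 groups, 12.5% were at least as far apart. The 5 macrophage groups lay within 0.28 of each other, and their order is of steps too small to read without an error. Neutrophil and macrophage markers were both present in the neutrophil group, and what each cell type gave to the Ncf1 value was not tested.

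Ncf1 overlaps the 3' part of Gtf2ird2, a gene on the opposite strand, and 408 exonic bases, 11.1% of the exons of Ncf1, are annotated to both. Gtf2ird2 had log2 values of 9.67 in neutrophils, 7.42, 7.30 and 7.68 across days 1, 2 and 4 of the Ly6C high subset, and 7.35 and 7.30 across days 2 and 4 of the Ly6C low subset. Its difference between day 1 Ly6C high cells and neutrophils was -2.25, beside -2.30 for Ncf1, and it amounted to 5.14 to 6.26% of the linear Ncf1 value in every group. Whether the counting used strand is not given in the sources used here, so reads of the 2 genes may not have been separated.

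Ncf4, the subunit that binds phosphatidylinositol 3-phosphate on phagosomes, had log2 values of 11.72 in neutrophils, 11.57, 11.44 and 11.08 across days 1, 2 and 4 of the Ly6C high subset, and 10.60 and 10.92 across days 2 and 4 of the Ly6C low subset. Neutrophils and the Ly6C high groups of days 1 and 2 were the highest, and day 2 Ly6C low cells the lowest. Ncf4 was 0.84 lower in Ly6C low than in Ly6C high cells on day 2, a 1.79-fold difference, and 0.15 lower on day 4. Monocyte markers were at least 2-fold lower for 4 of 5 genes in Ly6C low cells on both days, and macrophage markers higher for 4 of 11 on day 2 and 5 of 11 on day 4. Fibroblast markers were lower for 5 of 5 on day 2 and 8 of 8 on day 4, endothelial markers for 5 of 8 and 7 of 8, and dendritic cell markers for 4 of 6 on both days. Their part in the Ncf4 difference was not tested. Ncf1 minus Ncf4 was 2.00 in neutrophils, -0.16, 0.02 and 0.62 across days 1, 2 and 4 of the Ly6C high subset, and 1.00 and 0.65 across days 2 and 4 of the Ly6C low subset.

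Rac2, the Rac GTPase largely restricted to blood cells, had log2 values of 12.18 in neutrophils, 11.48, 11.52 and 11.44 across days 1, 2 and 4 of the Ly6C high subset, and 11.24 and 11.60 across days 2 and 4 of the Ly6C low subset. Neutrophils were the highest group, 0.70 above day 1 Ly6C high cells. Rac1, which is found in most cell types, had log2 values of 11.95 in neutrophils, 12.26, 12.28 and 12.05 across days 1, 2 and 4 of the Ly6C high subset, and 12.19 and 12.06 across days 2 and 4 of the Ly6C low subset. No pair of groups differed in Rac1 by more than 0.33. Rac2 minus Rac1 was 0.22 in neutrophils and -0.95 to -0.46 in the macrophage groups.

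The flat Rac1 values carry a limit of annotation. Daglb, a diacylglycerol lipase gene on the opposite strand, shares 2309 exonic bases with Rac1, 51.4% of the Rac1 exons. Daglb had log2 values of 9.11 in neutrophils, 8.28, 9.47 and 10.28 across days 1, 2 and 4 of the Ly6C high subset, and 10.01 and 11.16 across days 2 and 4 of the Ly6C low subset. It amounted to 6.33% of the linear Rac1 value in day 1 Ly6C high cells and to 53.4% in day 4 Ly6C low cells. Reads that the 2 genes share cannot be told apart without strand, and their part in the Rac1 values was not tested. Cyba lies inside the long gene model Gm20388 on the other strand, with no exonic base shared. A transcript of Mrpl35, at log2 values of 5.91 to 6.76, matched Rac2 at 90.1% over 202 bases.

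**Figure D2:**
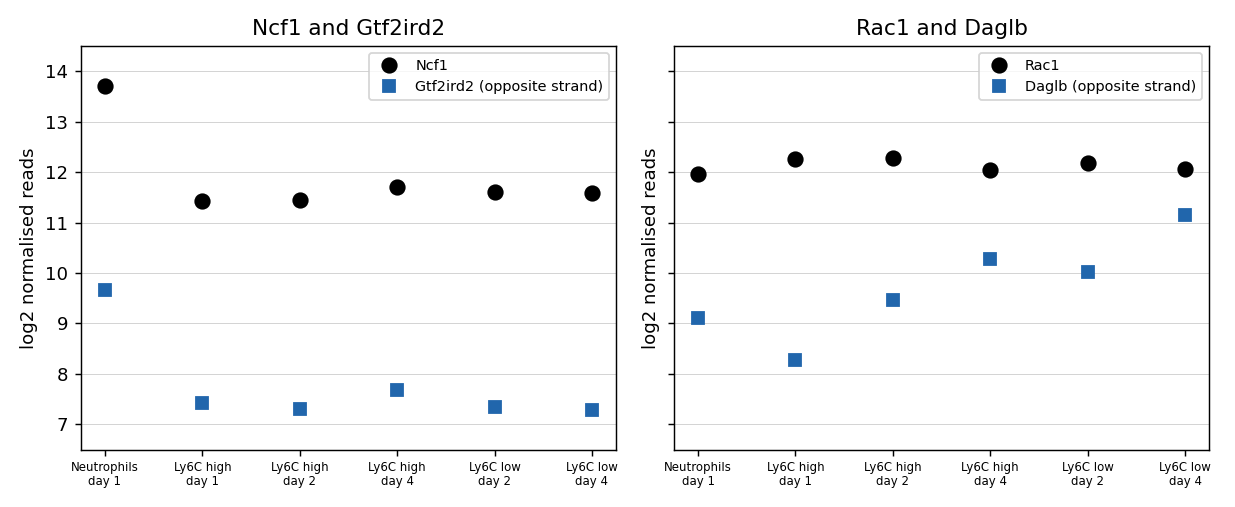
Log2 normalised reads (vertical axis) of Ncf1 with Gtf2ird2 (left) and of Rac1 with Daglb (right) by group (horizontal axis, 6 groups), 1 point per gene and group, the authors' means. Gtf2ird2 has its highest value, 9.67, in neutrophils as Ncf1 does, while Daglb runs from 8.28 to 11.16 beside a Rac1 that stays between 11.95 and 12.28.

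Levels of different genes were compared per kilobase of annotated exons, as log2 values minus log2 of the exon length. On this scale Cyba was the highest of the 6 in every macrophage group, at 12.26 to 12.64. In neutrophils Ncf1 was at 11.84 and Cyba at 11.71, a difference of level that vanished with the longest transcript as the length (12.19 for both). Cybb took place 2 among the 6 in both day 4 groups, at 10.95 and 11.32, and places 4 or 5 in the 4 other groups (3 to 5 with the longest transcript). The other subunits lay between 9.54 and 10.71 in all groups outside the neutrophil value of Ncf1.

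**Figure D3:**
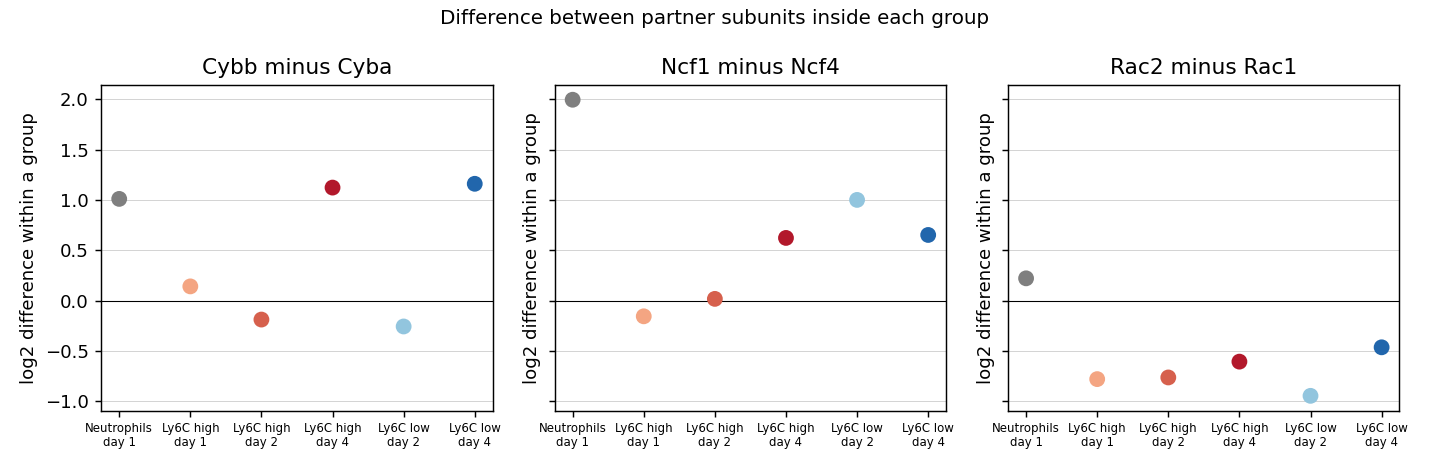
Difference of log2 normalised reads between partner subunits inside each group (vertical axis) for Cybb minus Cyba, Ncf1 minus Ncf4 and Rac2 minus Rac1 by group (horizontal axis, 6 groups), 1 point per group with no error. Cybb minus Cyba is above 1 in neutrophils and in both day 4 groups, and Rac2 minus Rac1 is above 0 in neutrophils alone.

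The comparisons between groups were counted at a 2-fold difference, among genes that reached a log2 value of 5 in any group of the comparison. Comparisons that use the same group share its value and are not independent. Between Ly6C high macrophages and neutrophils of day 1, 1 of the 6 subunits was at least 2-fold lower (Ncf1) and none higher, beside 32.7% of all genes apart by that much (16.6% higher and 16.1% lower). The median difference of the 6 was -0.23, and that of all genes 0.08. Between days 2 and 1 of Ly6C high cells, 0 of 6 were apart, where 2.51% of all genes were (1.41% higher and 1.1% lower), and the largest difference was -0.18 for Cybb.

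Between days 4 and 2, 1 of 6 was higher (Cybb) in Ly6C high cells, beside 16.3% of all genes apart (14.3% higher and 2% lower), and 1 of 6 (Cybb) in Ly6C low cells, beside 11.4% apart (9.23% higher and 2.16% lower). Between days 4 and 1 of Ly6C high cells, Cybb was again the only subunit apart, by 1.03, beside 21.6% of all genes apart (17.6% higher and 3.97% lower). Between the subsets 0 of 6 were apart on day 2, beside 7.74% of all genes (3.71% higher and 4.03% lower), and 0 of 6 on day 4, beside 11.4% (2.44% higher and 8.93% lower). The subset difference on day 4 minus that on day 2 reached 0.69 for Ncf4, 0.43 for Rac2 and 0.42 for Cybb, with 0 of 6 apart beside 7.06% of all genes (0.967% higher and 6.09% lower). After quantile normalization the subset difference of Cybb was 0.05. A count of 0 or 1 among 6 genes is close to these shares of all genes, so the counts set the subunits apart in no comparison.

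**Figure D4:**
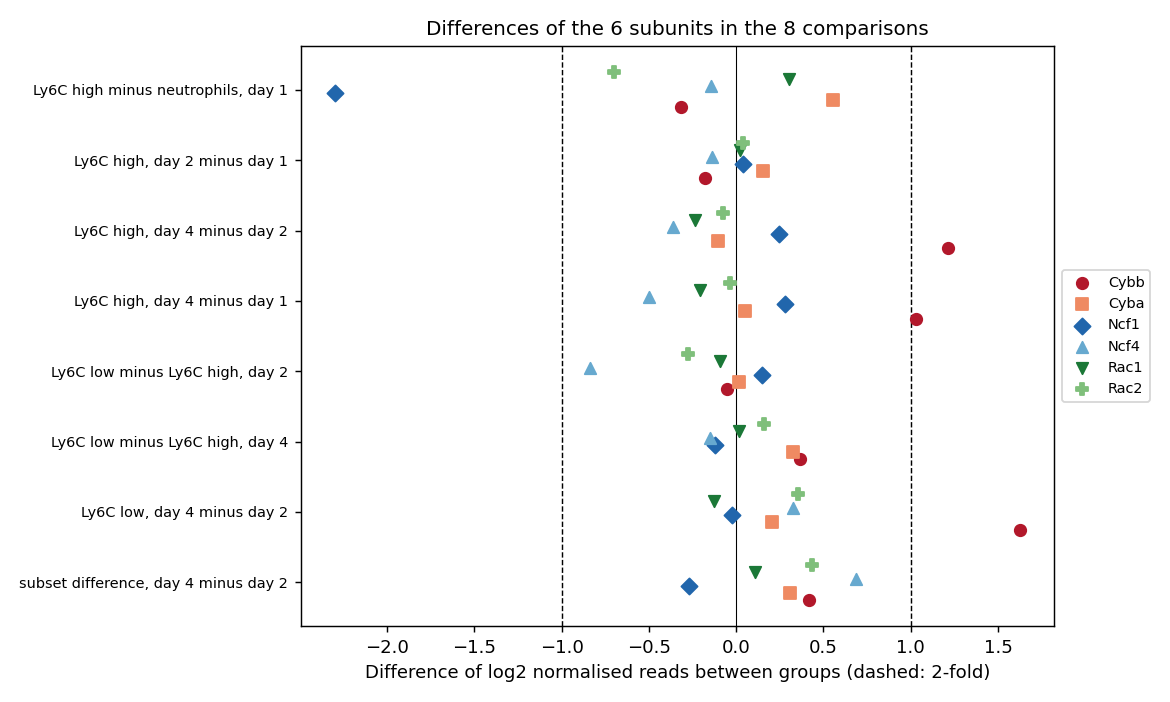
Difference of log2 normalised reads (horizontal axis) of the 6 subunits in the 8 comparisons (vertical axis), 1 point per gene with no error, and dashed lines at 2-fold. Only Ncf1 in the comparison with neutrophils (-2.30) and Cybb in the 3 comparisons of day 4 with an earlier day (1.03, 1.21 and 1.63) pass the lines.

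For each subunit the 3 genes of most like pattern were taken among genes with a mean log2 value of at least 8, by the root mean square difference of the profiles over the 6 groups after centring. These were Zcchc11 (0.16), H2-T22 (0.17) and Lrrk1 (0.18) for Cybb, and Klf10 (0.08), Klf2 (0.13) and Tmem38b (0.14) for Ncf1. Klf10 and Klf2 encode zinc finger transcription factors. For Ncf4 they included Kdm6b, a histone demethylase (0.08), and Med14 (0.09). For Cyba they were Hadha, Cttnbp2nl and Ppp1r12c, for Rac1 Csnk2b, Dctn3 and Ccdc127, and for Rac2 Kdm3a, Ambra1 and Fnbp1, at 0.03 to 0.05. The subunits themselves were not among each other's nearest genes. The closest such place was that of Rac2 for Ncf1, 573 of 6113 genes, and Cyba stood at place 1446 for its partner Cybb. By the size of the difference, Cyba and Rac1 were the closest pair of subunits (0.25), against 0.56 for Ncf1 and Rac2.

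The wider pathway was described with 5 lists. Cybc1, in the table under its older symbol BC017643 and known as a chaperone of the gp91phox and p22phox heterodimer, had log2 values of 9.70 in neutrophils, 10.45, 9.93 and 9.87 across days 1, 2 and 4 of the Ly6C high subset, and 9.57 and 9.59 across days 2 and 4 of the Ly6C low subset. It was highest in day 1 Ly6C high cells and was at its lowest in Ly6C low cells, so it did not follow Cybb on day 4. Of the 11 genes of this list, 3 (Cybc1, Nox4 and Rac3) reached a log2 value of 5. Nox4, a related oxidase named here after its values were seen, was at 6.12 in day 4 Ly6C high cells and listed at 0 in neutrophils and in day 2 Ly6C low cells. Fibroblast and endothelial markers were highest in that same Ly6C high group, and their part in the Nox4 value was not tested.

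Transcription factors that have been tied to oxidase genes were set beside Cybb. Irf8 stood at place 143 of 6113 genes in likeness to Cybb (0.38). Irf8 had log2 values of 9.79 in neutrophils, 10.30, 10.29 and 11.30 across days 1, 2 and 4 of the Ly6C high subset, and 10.14 and 11.06 across days 2 and 4 of the Ly6C low subset. Irf1 was at 11.86, then at 10.13, 9.99 and 11.14, and at 10.07 and 11.06 in the same order. Both were higher on day 4 than on day 2 in either subset, by smaller differences than Cybb, but Irf1 was highest in neutrophils and Irf8 lowest there. Cebpa, a myeloid factor, ran from 9.87 in neutrophils to 11.98 in day 4 Ly6C low cells, and Nfkb1, an NF-kappaB subunit, from 11.45 in day 2 Ly6C low cells to 12.98 in day 1 Ly6C high cells. Spi1, which encodes PU.1 and is listed as Sfpi1, stayed between 11.79 and 12.17. Spi1 is named, and Elf1 plotted, after their values were seen. In Ly6C high cells 2 of the 11 factors compared (Irf1 and Irf8) were at least 2-fold higher on day 4 than on day 2 and 1 (Cebpe) was lower, beside 14.3% and 2% of all genes, with a median difference of 0.15 beside 0.01 for all genes.

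**Figure D5:**
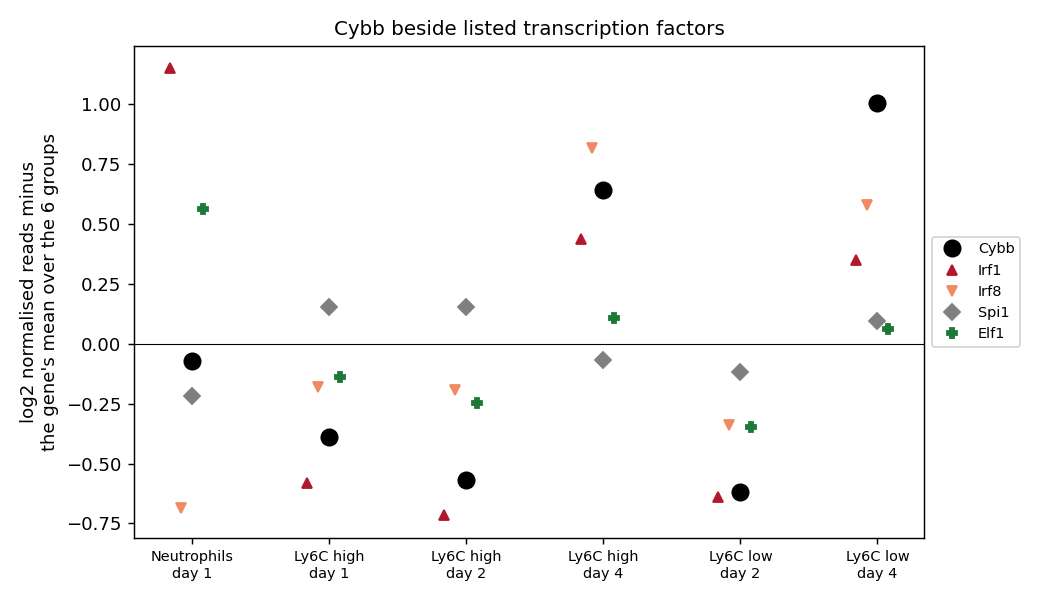
Log2 normalised reads minus the gene's mean over the 6 groups (vertical axis) for Cybb and 4 listed transcription factors by group (horizontal axis, 6 groups), 1 point per gene and group, the authors' means. Cybb, Irf8, Irf1 and, by less, Elf1 lie above 0 in both day 4 groups, and Spi1 stays close to 0.

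Kinases and GTPase regulators that act on the oxidase were lower in day 1 Ly6C high cells than in neutrophils for 7 of 26 genes at 2-fold while 2 were higher, beside 16.1% of all genes lower and 16.6% higher, and their median difference was -0.65 beside 0.08 for all genes. Pik3cg, the catalytic subunit of phosphoinositide 3-kinase gamma, was at 10.79 in neutrophils and at 8.70 to 9.42 in the macrophage groups. It was the gene of this list nearest to Ncf1 in pattern, at place 44. Hvcn1, the proton channel that balances charge during the burst, was at 9.94 in neutrophils, 8.42, 8.99 and 10.33 across days 1, 2 and 4 of the Ly6C high subset, and 10.05 and 11.03 across days 2 and 4 of the Ly6C low subset. Like Cybb, it was highest in day 4 Ly6C low cells, but its lowest value was in day 1 Ly6C high cells. Vav2, a Rac exchange factor, ran from 7.75 in neutrophils to 10.28 in day 4 Ly6C low cells. Racgap1, a GTPase-activating protein that also acts in cell division, ran from 4.54 in day 1 Ly6C high cells to 8.59 in day 4 Ly6C low cells.

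The list of receptors and adaptors tied to the burst included Fpr1, the gene with the widest range over the 5 lists. Not every gene of this list triggers the burst, since Fcgr2b encodes an inhibitory Fc receptor. Fpr1, a formyl peptide receptor, had log2 values of 11.25 in neutrophils, 8.35, 6.86 and 5.55 across days 1, 2 and 4 of the Ly6C high subset, and 6.27 and 3.46 across days 2 and 4 of the Ly6C low subset. Fpr2 ran from 12.07 in neutrophils to 6.11 in day 4 Ly6C low cells, and the complement receptor C5ar1 from 13.11 to 9.70 between the same groups. Fpr1, Fpr2 and C5ar1 were lowest in the group where Cybb was highest. The Fc receptor genes Fcgr2b (12.14), Fcgr3 (12.19) and Fcgr4 (9.21) and the kinase gene Src (7.23) had their highest value there. Of the other Fc receptor genes listed, Fcgr1 was highest in day 1 Ly6C high cells (11.65) and Fcer1g in neutrophils (12.39). In day 4 Ly6C low cells they were at 10.60 and 12.21. The Fc receptor genes and Src were named after their values were seen. Ltb4r1, a leukotriene B4 receptor, was at 10.29 in day 1 Ly6C high cells and at 4.98 in day 4 Ly6C low cells. Between days 4 and 1 of Ly6C high cells, 6 of 25 genes of this list were at least 2-fold lower and 1 higher, beside 3.97% of all genes lower and 17.6% higher, with a median of -0.51 beside 0.01 for all genes. Neutrophil markers were lower there too, for 7 of 9 with a median of -2.59, and their part was not tested.

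Among enzymes that make or remove reactive oxygen downstream, Sod2, the mitochondrial superoxide dismutase, was at 12.29 in neutrophils, 12.34, 11.47 and 10.88 across days 1, 2 and 4 of the Ly6C high subset, and 11.05 and 10.25 across days 2 and 4 of the Ly6C low subset. Catalase, encoded by Cat, was lowest in day 1 Ly6C high cells (8.83) and highest in day 4 Ly6C low cells (10.51). Sod2 was thus lowest and Cat highest in the group with the highest Cybb. The secreted enzymes Sod3 and Gpx3 were at 8.77 and 9.99 in day 4 Ly6C high cells against 4.59 and 6.23 on day 2, beside the higher fibroblast markers given above, whose part was not tested. Of the 13 genes of this list compared between neutrophils and day 1 Ly6C high cells, none was 2-fold apart, beside 32.7% of all genes. The myeloperoxidase gene Mpo was listed at 0 in neutrophils and stayed below a log2 value of 3 in the macrophage groups.

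The depth behind these values is known in part. In low values, which fall on multiples of what 1 read was worth, 16 such steps were found over the 6 groups, between 0.412 and 1.03 normalised units per read. A library at the lowest group value of a subunit, 10.60, would hold 1513 reads of that gene at the highest worth found, for which counting error alone is 2.57%. The step of 1 library was not found, and single libraries may lie below their group value. In 1 neutrophil library low values fell on even multiples for 2369 genes and on odd ones for 436. If its reads were counted in pairs, its lowest subunit value would still stand for 1644 fragments. This error is small beside the 2-fold differences given but not beside the smallest steps, and the spread between samples is unknown.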

How the data were processed

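RNA was sequenced from 17 samples in 6 groups. The authors deposited log2 normalised reads as 1 column per group, read here as means of log2 values over the samples of a group. The submitters' processing notes list the tools Cufflinks 2.0.2 and TopHat2 2.0.7 and the build mm10, without saying what each was used for. How reads were assigned to genes and normalized is not given in the sources used here. No columns of single samples were used here, so sizes of difference were compared without a test, between 7 pairs of groups and in 1 difference of differences. Coordinates and exon lengths came from GENCODE M21, which holds 36308 (95.3%) of the identifiers. Similar transcripts were sought with BLAST, and the counting of genes apart was tested on simulated data. Tools were Python 3.11.15, pandas 2.3.3, numpy 2.4.6 and matplotlib 3.10.9. The named genes were the 6 subunits, their 3 genes of most like pattern, and up to 4 genes of each list with the widest range among those reaching a log2 value of 8. The members and lists were chosen with earlier results of these data known. Some genes of the lists are not reported here.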

Additional observations from a re-analysis of the deposited data

How the results depend on the processing

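Counts of subunits at least 2-fold apart were the same in all 8 comparisons with pseudocounts of 0.1 and 5, without a filter, with both other filters, and after median-ratio rescaling, quantile normalization and centring on protein-coding genes. With 1.5-fold in place of 2-fold, 2 subunits in place of 1 were apart between Ly6C high cells and neutrophils, 1 in place of 0 between the subsets on day 2, and 1 in place of 0 in the subset difference of day 4 minus day 2. None of the 48 differences of single subunits crossed 2-fold under the 5 scalings and pseudocounts, and the largest shift was 0.41, under quantile normalization. Signs changed under a scaling only for differences between -0.21 and 0.11 in the deposited values. Without the neutrophil group, an alternative added after the data were seen, the range of Ncf1 was 0.28 in place of 2.30. The share of all genes apart was 7.93 to 52.3% at 1.5-fold, and moved by over 1.5 times in 4 comparisons with a minimum of 1 in 2 groups (5.82 to 18.2%), in 2 without a filter (14.2 and 21.4%) and in 1 with a minimum of 5 in 2 groups (4.40%). Of the 3 genes of most like pattern, 0 to 2 were shared with Pearson correlation and 1 to 3 with a minimum mean of 5 (1 for Cybb, Ncf1 and Rac1). No paired analysis was possible because the columns used here hold 1 value per group, and leaving out replicates was not run for the same reason.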

Other observations

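Ncf4 and Rac2 lie 296.6 kb apart on chromosome 15, with 10 protein-coding genes between them, of which 7 reached a log2 value of 5. Among these, named here after their values were seen, Csf2rb and Csf2rb2 encode beta subunits of cytokine receptors of myeloid cells. Csf2rb had log2 values of 13.05 in neutrophils, 14.03, 13.53 and 12.94 across days 1, 2 and 4 of the Ly6C high subset, and 12.40 and 12.49 across days 2 and 4 of the Ly6C low subset. Csf2rb2 was at 11.86, then at 12.81, 12.18 and 12.02, and at 11.28 and 11.58 in the same order. Of the 7 genes, Csf2rb, Csf2rb2 and Il2rb had their lowest value in day 2 Ly6C low cells, as Ncf4 and Rac2 had, while Tst and Mpst were lowest in day 1 Ly6C high cells, and Kctd17 and C1qtnf6 in neutrophils. In those lowest groups Il2rb, Tst and Kctd17 were below a log2 value of 5. The step of Csf2rb between days 2 and 4 of the Ly6C low subset is too small to order them without an error. Ncf4 and Rac2 were highest in neutrophils, and Csf2rb and Csf2rb2 in day 1 Ly6C high cells.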
